A study of Mus musculus with 8 samples.

Results

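The TRAF adaptors and the ubiquitin-editing feedback genes of NF-kB signalling were followed through the response of mouse peritoneal macrophages to 100 ng/ml of lipopolysaccharide (LPS), a bacterial outer membrane component sensed through TLR4. The cells were wild-type or labelled Zc3h12a-/-, and each genotype was measured unstimulated and after 1, 2 and 4 h of LPS. The set was defined by name as 10 genes: Tnfaip3, Tnip1, Tnip3, Traf1, Traf2, Traf3, Traf5, Cyld, Tank and Tnfaip2. Of these, 8 were matched to at least 1 probe set that carries a single gene symbol, 17 probe sets in all, out of 18193 genes matched in this way on the array. Traf3 and Tnip3 were not matched and are not analysed here. All 8 matched genes passed the filter on dim genes, which kept 12540 genes.

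There were 8 arrays, 1 for each genotype and time, and therefore no replicates within a group. The macrophages were elicited by thioglycollate, an irritant injected into the peritoneal cavity, and the time 0 h stands for unstimulated cells. The labels state neither the age, sex and background strain of the mice nor how many were used per array. Zc3h12a encodes Regnase-1, an endonuclease that degrades inflammatory mRNAs. Its brighter probe set read 6.12, 8.02, 8.87 and 8.57 in wild-type cells and 6.73, 7.70, 8.75 and 8.50 in cells labelled knockout. The position of the probes relative to the deleted part is not known here, so these values check nothing about the labels, and the arrays are called labelled knockout.

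In the pathways these genes serve, receptors of the TNF and Toll-like families recruit TRAF proteins, which dock ubiquitin ligases and kinases and so lead to NF-kB and MAP kinase activation. The signal runs on ubiquitin chains, and enzymes that remove or remodel the chains end it. Tnfaip3 encodes A20, which edits ubiquitin chains and is itself transcribed in response to NF-kB, a classical negative feedback loop. Cyld encodes another deubiquitinase that restrains the same pathway.

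Promoter sequence is given first for a few of the genes whose LPS responses are described below. In the 250 bases before a RefSeq start site (build GRCm38.p6), a match to the NF-kB consensus was sought on both strands, with overlapping matches counted. It was found for 4 of the 8 measured genes, which were Tnfaip3, Tnip1, Tank and Cyld, and for 4.46% of 27025 genes with such a window. Genes with several start sites, such as Tank and Tnfaip3, have more windows in which to match. The Cyld match, which fits the consensus on the opposite strand and reads GGAAAGTCCC on the gene's own, began 155 bases before its start. The windows of Tnfaip3 and Tnip1, the genes of A20 and of its partner, are shown with that of Tank and with that of Traf1, which by its brighter probe set rose furthest by 4 h and holds no match. Matches are in capitals, and each sequence runs 5′ to 3′ on the gene's strand.
Tnfaip3, chr10:19015411-19015660, minus strand: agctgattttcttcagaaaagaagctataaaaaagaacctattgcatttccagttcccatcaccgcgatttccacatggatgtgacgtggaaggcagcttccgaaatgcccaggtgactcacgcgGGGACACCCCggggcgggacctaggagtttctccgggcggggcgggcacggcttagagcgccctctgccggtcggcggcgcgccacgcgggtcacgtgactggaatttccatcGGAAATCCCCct
Tnip1, chr11:54962941-54963190, minus strand: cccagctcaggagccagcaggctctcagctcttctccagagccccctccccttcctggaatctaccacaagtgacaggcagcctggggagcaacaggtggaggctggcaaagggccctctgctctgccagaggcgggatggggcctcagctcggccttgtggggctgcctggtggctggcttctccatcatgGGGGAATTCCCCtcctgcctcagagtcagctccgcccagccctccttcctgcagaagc
Tank, chr2:61592847-61593096, plus strand: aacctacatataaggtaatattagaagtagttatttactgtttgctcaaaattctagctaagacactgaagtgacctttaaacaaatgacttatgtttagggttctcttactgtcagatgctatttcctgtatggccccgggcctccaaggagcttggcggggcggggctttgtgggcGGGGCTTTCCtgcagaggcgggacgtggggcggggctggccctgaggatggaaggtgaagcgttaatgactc
Traf1, chr2:34961773-34962022, minus strand: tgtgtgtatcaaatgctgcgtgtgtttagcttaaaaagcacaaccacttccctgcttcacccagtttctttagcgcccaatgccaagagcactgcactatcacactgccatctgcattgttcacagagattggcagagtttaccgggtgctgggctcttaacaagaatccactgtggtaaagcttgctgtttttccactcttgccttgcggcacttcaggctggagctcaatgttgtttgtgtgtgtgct
The Tnfaip3 match nearest its start, GGAAATCCCC, also fits on the opposite strand and began 12 bases before it. In Tnip1, 3 overlapping matches covered a single stretch that began 58 bases before the start. In Tank the match GGGGCTTTCC began 72 bases before that start site. A match is a description of the letters in the window and not evidence of binding.

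The first comparison asked how LPS changed these genes, with both genotypes together and genotype as a block. At 1 h, 6 of the 8 genes rose and none fell, while 3.85% of all tested genes rose and 6.62% fell (limma, Benjamini-Hochberg adjusted p under 0.05). At 2 h the same count was 6, against 12% of all genes that rose and 29.8% that fell. At 4 h all 8 rose by the probe set that stands for each gene, against 14.4% of all genes that rose and 29.4% that fell. The median difference of the 8 genes was 1.44, 2.23 and 2.23 on the log2 scale at 1, 2 and 4 h, while that of all tested genes was -0.09, -0.16 and -0.12. The 3 comparisons share the arrays of 0 h. The members were chosen with earlier results of these data known, so these counts are a description.

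**Figure D1:**
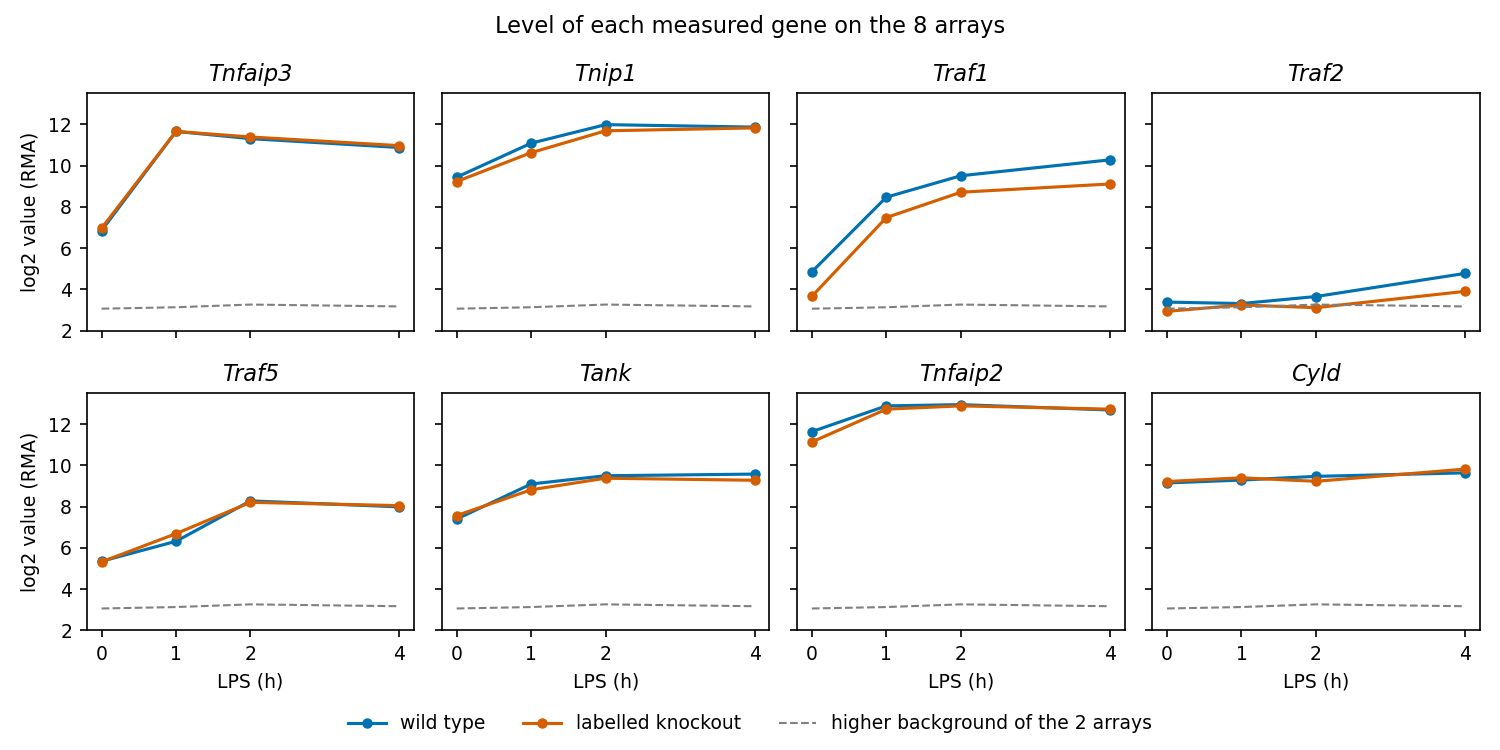
Level of each measured gene on each array (y axis, log2 RMA value, which is comparable within a gene and not between genes) against hours of LPS (x axis), with wild type in blue, labelled knockout in orange and the higher background of both arrays of a time as a dashed line. Tnfaip3 is highest at 1 h in both genotypes, Traf1 is lower in the labelled-knockout array at each time, and Traf2 lies near the background until 4 h.

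Tnfaip3, the gene of A20, had the largest increase of the set at 1 h by the probe sets that stand for the genes. By probe set 1433699_at it read 6.85 in wild-type cells without LPS, then 11.66, 11.31 and 10.88 after 1, 2 and 4 h. In labelled-knockout cells it read 6.96 and then 11.66, 11.39 and 10.97. Both genotypes were thus highest at 1 h, and every reading after LPS lay above both readings without it. At 1 h the difference was 4.76 (SE 0.10, adjusted p = 6.07e-06), a 27.1-fold increase, and at 4 h it was 4.03 (SE 0.10, adjusted p = 4.49e-06), or 16.3-fold. From 2 to 4 h Tnfaip3 fell by 0.42 (SE 0.10, adjusted p = 0.0333), in a comparison in which 9.72% of all genes fell. When any 1 of the 8 arrays was left out, that small decrease missed the threshold, though its estimate stayed between -0.43 and -0.41. Each such fit rests on fewer arrays. From 1 to 2 h, where 14.6% of all genes fell, the difference of -0.31 missed the threshold as well (adjusted p = 0.0797). A second, dimmer Tnfaip3 probe set, 1450829_at, was also highest at 1 h in both genotypes. It read 3.29, 6.20, 5.13 and 5.20 in wild type and 3.01, 6.02, 5.70 and 5.11 in labelled knockout, with a difference of 2.96 (SE 0.21) at 1 h. From 2 to 4 h it went up slightly in wild type and down in labelled knockout, and its step of -0.26 missed the threshold (adjusted p = 0.485 by limma).

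Tnip1 encodes ABIN-1, a ubiquitin-binding protein that works with A20 to restrain NF-kB signalling. It was already at 9.44 and 9.23 without LPS, in wild type and labelled knockout. Wild-type cells reached 11.09, 11.99 and 11.87 after 1, 2 and 4 h, and labelled-knockout cells 10.63, 11.69 and 11.83 (probe set 1427689_a_at). In contrast to Tnfaip3, Tnip1 went on rising from 1 to 2 h (0.98, SE 0.13, adjusted p = 0.00465), in both genotypes, and from 2 to 4 h it went down slightly in wild type and up slightly in labelled knockout. At 2 h the increase over 0 h was 2.50 (SE 0.13, adjusted p = 7.94e-05), or 5.66-fold.

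Among the TRAF genes, Traf1 had the largest increase at 4 h by the probe sets that stand for the genes. TRAF1 is an adaptor that lacks the RING domain of the other TRAFs and binds TRAF2 and the cIAP ubiquitin ligases. By probe set 1423602_at Traf1 read 4.85 unstimulated and 8.47, 9.51 and 10.28 after LPS in wild-type cells, and 3.66, 7.48, 8.71 and 9.11 in labelled-knockout cells. Each reading exceeded the one before it in both genotypes. The increases over 0 h were 3.72, 4.85 and 5.44 (SE 0.13 for each, adjusted p = 3.79e-05, 8.44e-06 and 4.49e-06), that is 13.2-fold, 28.9-fold and 43.3-fold. The step from 1 to 2 h was 1.13 (SE 0.13, adjusted p = 0.003). The step from 2 to 4 h was 0.58 (SE 0.13, adjusted p = 0.0271), but it missed the threshold without the wild-type 2 h, the wild-type 4 h or the labelled-knockout 4 h array, with values of 0.42, 0.50 and 0.67. The second, dimmer Traf1 probe set, 1445452_at, was highest at 2 h in both genotypes and stood 1.28 (SE 0.32, adjusted p = 0.0205) above 0 h at 2 h and 0.88 (SE 0.32, adjusted p = 0.0681) at 4 h. With the mean of both probe sets the Traf1 increase at 4 h was 3.16 and the step from 2 to 4 h 0.09 (adjusted p = 0.734), so the size of the increase and its course after 2 h depend on the probe set.

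Traf5 encodes an adaptor that binds several TNF receptor family members. By probe set 1448861_at it rose later, from 5.35 to 6.32, 8.28 and 7.99 in wild type and from 5.32 to 6.69, 8.21 and 8.05 in labelled knockout. Most of its increase fell between 1 and 2 h, where the step was 1.74 (SE 0.14, adjusted p = 0.000791), or 3.34-fold, while 7.71% of all genes rose. At 2 h it stood 2.91 (SE 0.14, adjusted p = 5.39e-05) above 0 h. A second Traf5 probe set was above background on 3 arrays and did not pass the filter on dim probe sets.

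Traf2 encodes the TRAF that, with cIAPs, supports ubiquitination at TNF receptors. Its single probe set, 1451233_at, was dim. It read 3.38, 3.31, 3.65 and 4.77 in wild type and 2.93, 3.24, 3.11 and 3.90 in labelled knockout, and the labelled-knockout readings of 0 and 2 h lay below the backgrounds of their arrays, 2.96 and 3.21. Traf2 was highest at 4 h in both genotypes. The difference from 0 h was 0.12 and 0.22 at 1 and 2 h, neither past the threshold, and 1.18 (SE 0.19, adjusted p = 0.00312) at 4 h. The step from 2 to 4 h was 0.95 (SE 0.19, adjusted p = 0.0164), and it missed the threshold on leaving out the 2 h array of either genotype (adjusted p = 0.0744 and 0.0961) or that of wild type at 4 h (0.0935). In that comparison 11.3% of all genes rose.

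**Figure D2:**
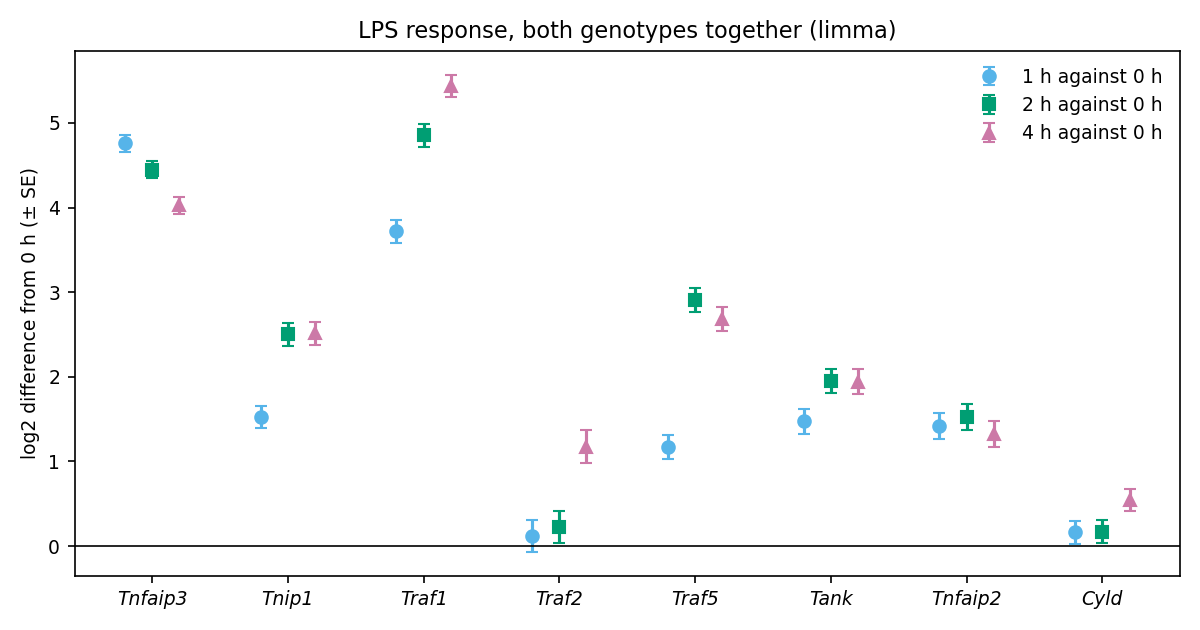
Difference from 0 h (y axis, log2 units) of each measured gene at 1, 2 and 4 h of LPS, from limma with genotype as a block over all 8 arrays, with bars of 1 SE. Tnfaip3 goes from 4.76 at 1 h to 4.03 at 4 h, while Traf1 goes from 3.72 to 5.44 and Traf2 reaches 1.18 at 4 h.

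Tank encodes a TRAF-binding scaffold that holds the kinases TBK1 and IKK-epsilon. By probe set 1421640_a_at it read 7.40 without LPS and 9.10, 9.50 and 9.58 after it in wild type, and 7.57, 8.82, 9.38 and 9.28 in labelled knockout. It rose by 1.47 (SE 0.14, adjusted p = 0.00199) at 1 h and stood 1.95 (SE 0.14) above 0 h at 2 h and 1.94 (SE 0.14) at 4 h. The step of 0.48 from 1 to 2 h missed the threshold (adjusted p = 0.061, from 0.00481 to 0.286 over the 17 alternatives). A second Tank probe set, 1441513_at, had lower readings and rose from 3.92 to 5.17, 6.01 and 6.31 in wild type and from 4.00 to 5.08, 6.54 and 6.66 in labelled knockout, and by that probe set the step from 1 to 2 h was 1.15 (SE 0.17, adjusted p = 0.00657).

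Tnfaip2 encodes a TNF-inducible protein known for its part in forming membrane nanotubes. Its brightest probe set, 1438855_x_at, read 11.64, 12.89, 12.95 and 12.69 in wild type and 11.14, 12.73, 12.89 and 12.73 in labelled knockout. The increase by that probe set was 1.42, 1.53 and 1.32 (SE 0.15 for each) at 1, 2 and 4 h. Another probe set, 1416273_at, read 7.15, 10.05, 10.43 and 9.86 in wild type and 6.62, 9.78, 10.21 and 9.84 in labelled knockout, with increases of 3.03, 3.43 and 2.96 (SE 0.15 for each, adjusted p = 9.59e-05, 2.83e-05 and 2.49e-05). The dimmest, 1457918_at, lay between 3.83 and 4.29 on all arrays and passed the threshold at no time. All 3 probe sets gave positive differences, but the size of the Tnfaip2 increase depends on which of them is read.

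Cyld gave no single direction. Its brightest probe set, 1429618_at, read 9.15, 9.29, 9.47 and 9.64 in wild type and 9.22, 9.40, 9.23 and 9.82 in labelled knockout. At 4 h it was 0.54 (SE 0.13, adjusted p = 0.0178) above 0 h, or 1.46-fold, and this call was lost without the wild-type 0 h, the labelled-knockout 0 h or the labelled-knockout 4 h array (adjusted p = 0.105, 0.0775 and 0.113). A dimmer probe set, 1429201_at, read 4.15, 3.74, 3.73 and 3.50 in wild type and 4.67, 3.77, 4.02 and 3.84 in labelled knockout. By it Cyld fell by 0.66, 0.53 and 0.74 (SE 0.14 for each) at 1, 2 and 4 h, with adjusted p = 0.0411, 0.0288 and 0.00678. Probe set 1429617_at rose by 0.72 (SE 0.11) at 4 h, and the remaining one was at or below background on all arrays. The fits by probe set covered 22172 probe sets, 15 of the 17 of these genes among them.

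**Figure D3:**
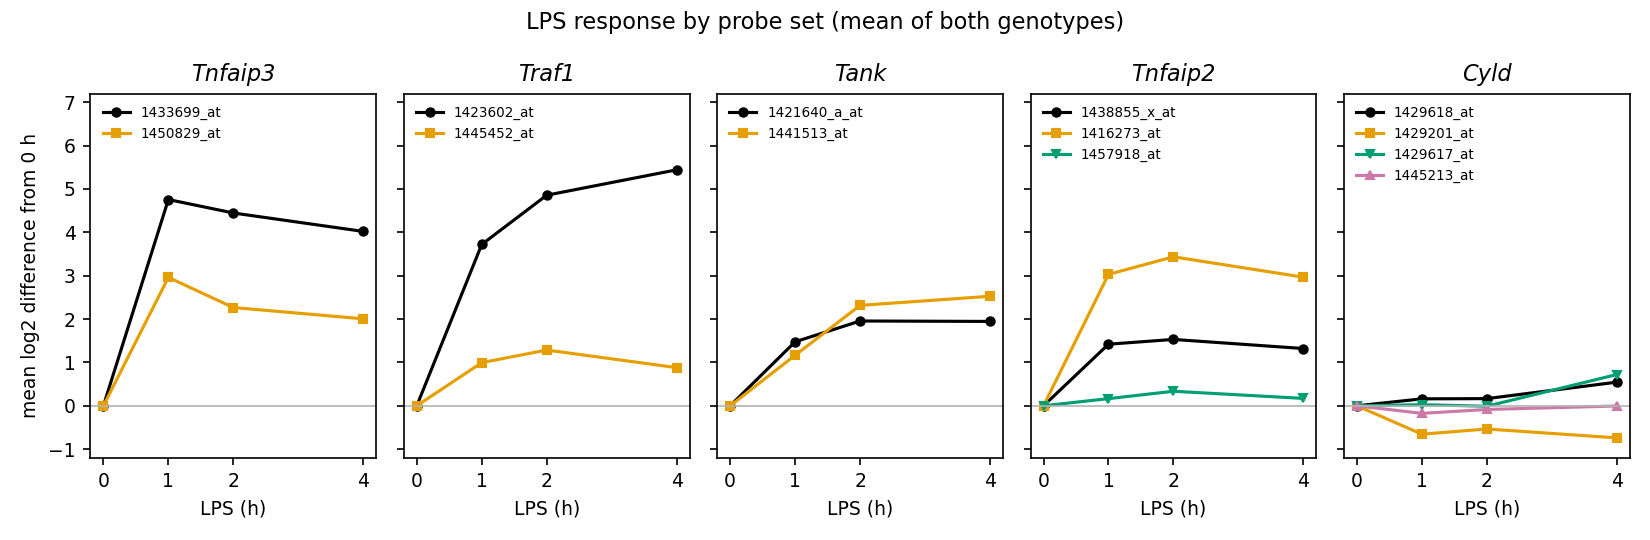
Mean difference of both genotypes from 0 h (y axis, log2 units) against hours of LPS (x axis) for each probe set of the 5 genes with more than 1 probe set above background on most arrays, with the probe set that stands for the gene in black. The probe sets of Tnfaip3 and of Tank rise together, those of Tnfaip2 reach 1.53, 3.43 and 0.33 at 2 h, and those of Cyld differ in direction.

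By the probe sets that stand for the genes, the order of the increases differed between times. At 1 h Tnfaip3 stood first, then Traf1, and Tnip1, Tank, Tnfaip2 and Traf5 lay between 1.17 and 1.52, closer to one another than to Traf1. At 4 h Traf1 stood first at 5.44, Tnfaip3 next at 4.03, and Traf5 and Tnip1 at 2.68 and 2.51. By 1416273_at the Tnfaip2 increases of 3.03 and 2.96 at 1 and 4 h would place it next to Traf1 at 1 h and above Traf5 and Tnip1 at 4 h. The SE bars of Traf5 and Tnip1, 0.14 and 0.13, overlapped at 4 h. Levels were not compared between genes, since probe sets differ in brightness for reasons other than mRNA abundance. The increases also differed between probe sets of one gene. By its second probe set Tnfaip3 rose by 2.96 at 1 h, less than the 3.72 of Traf1 by its brighter one. Traf1 stood 0.88 above 0 h at 4 h by its second probe set. The order between genes therefore depends on which probe sets are read.

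The genes outside the set whose values followed each member most closely over the 8 arrays were also named, by Pearson correlation among all tested genes. The points share the arrays and the LPS time course, and each gene was picked for the highest value among all tested genes outside the set. The values are therefore a description. For Tnfaip3 this was Nfkbia, the gene of the NF-kB inhibitor IkB-alpha (r = 0.999), which read 10.85, 13.32, 13.21 and 13.08 in wild type and 10.98, 13.34, 13.18 and 13.02 in labelled knockout. For Tank it was Bcl3 (0.997), for Traf1 the TNF receptor gene Tnfrsf1b (0.994), for Traf5 Rnd1 (0.994), for Tnfaip2 Ccrl2 (0.993) and for Tnip1 the NF-kB subunit gene Nfkb2 (0.992). Traf2 was followed by Gm14057 (0.990) and Cyld, with the lowest value, by Eif4e3 (0.965). Gm14057 was dim like Traf2, at 3.55 to 4.46, and both were highest at 4 h in both genotypes. Within the set, Tnip1 and Traf1 correlated at 0.98 and Tnfaip3 and Traf2 at 0.29.

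The second comparison asked whether the genotypes differed, with time as a block. Traf1 was the 1 gene of the 8 that passed, and it was lower in the labelled-knockout arrays by 1.04 on the log2 scale, or 2.05-fold. Over all tested genes 8.72% were lower and 4.75% higher, so 1 in 8 is not a result about the set. The Traf1 readings given above differed by -1.19, -0.99, -0.80 and -1.16 at 0, 1, 2 and 4 h, labelled knockout minus wild type, so the labelled-knockout array was lower in 4 of 4 pairs. The fitted difference was -1.04 (SE 0.09, 95% interval from -1.27 to -0.81, adjusted p = 0.00209 by limma). It kept its call when each array was left out in turn (values from -1.12 to -0.98, adjusted p from 0.00686 to 0.017). With time as a block, leaving out either array of a time gives the same genotype estimate, so these are 4 distinct checks. The limma difference rests on the same 4 pairs. Without the time block the adjusted p was 0.977, as the LPS response then counts as error.

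The second Traf1 probe set read 2.82, 4.33, 4.85 and 4.18 in wild type and 2.98, 3.46, 3.52 and 3.38 in labelled knockout. Its wild-type reading at 0 h lay below background. It was lower in the labelled-knockout array at 1, 2 and 4 h and not at 0 h, and the difference of -0.71 (SE 0.22) missed the threshold in the fit across probe sets (adjusted p = 0.0984).

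**Figure D4:**
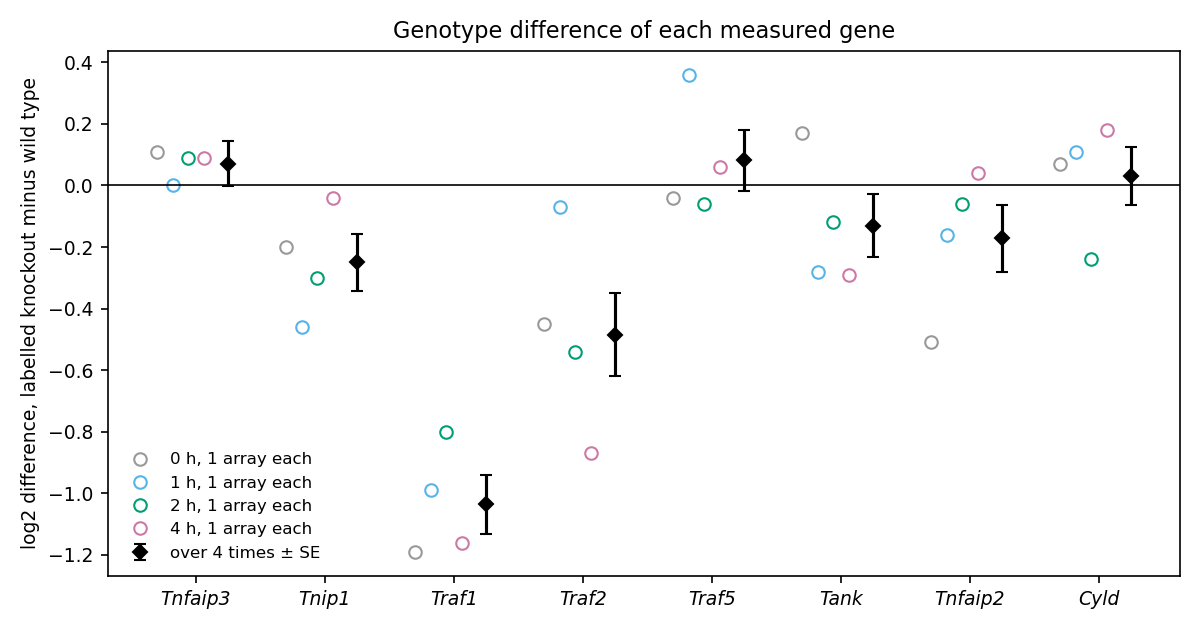
Difference between genotypes (y axis, log2 units, labelled knockout minus wild type) of each measured gene. Open circles are the differences of 1 pair of arrays at 0, 1, 2 and 4 h, and filled diamonds with bars of 1 SE are the limma estimates with time as a block. Traf1 lies between -1.19 and -0.80 at all 4 times, and Tnfaip3 between 0 and 0.11.

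The other genes of the set did not pass in this comparison. Tnfaip3 differed by 0.07 (SE 0.07, 95% interval from -0.11 to 0.25, adjusted p = 0.543), an interval that leaves out a difference as large as that of Traf1 in either direction. The values were 0.08 for Traf5, 0.03 for Cyld, -0.13 for Tank and -0.17 for Tnfaip2, and their 95% intervals lay within -0.43 and 0.32. Tnip1 was lower in labelled knockout at all 4 times, by 0.04 to 0.46, and its difference of -0.25 (SE 0.09, adjusted p = 0.131) missed the threshold. Traf2 was also lower at all 4 times, with a difference of -0.48 (SE 0.13, adjusted p = 0.0647, from 0.0361 to 0.835 over its 16 alternatives), but 2 of its labelled-knockout readings lay below background. Its adjusted p was 0.0361 without either 1 h array.

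Markers of other cells and a measure of RNA quality also differed between the genotypes' arrays, and their part in the Traf1 difference was not tested. Of 10 resident peritoneal macrophage markers 9 were higher in labelled knockout, as were 4.75% of all genes. The list's summed level (sum of 2 to the power of the log2 value) was 3380 to 4070 in wild type and 13800 to 14700 in labelled knockout. For 9 mesothelial and stromal markers the sum was 1410 to 1900 against 458 to 709. Of these, 6 were lower in labelled knockout, as were 8.72% of all genes. Upk3b did not pass (-0.12, adjusted p = 0.515 by limma), and Msln and Krt19 were at background on all arrays. For 8 general macrophage markers, all above background on every array, the sum was 33300 to 37100 against 33200 to 38100. Among them Adgre1 (0.71) and Itgam (0.90) were higher in labelled knockout and Fcgr1 (-0.87) was lower, each past the threshold. The 7 B cell markers measured summed to 98.7 to 107 in wild type and 478 to 750 in labelled knockout. Ighm was the 1 of them that passed, Pax5 and Cr2 were at background on all arrays, and Cd79a, Ms4a1 and Blk did not pass. The sums were 80.3 to 81.8 against 94.8 to 137 for 7 T cell markers (Cd3e and Thy1 higher, Cd3g and Cd8a at background), 1380 to 3600 against 1550 to 3970 for 5 neutrophil markers (S100a9 higher by 3.12, adjusted p = 8.73e-05, S100a8 not past the threshold, Ltf and Elane at background), 39.6 to 58.9 against 41.6 to 63.6 for 3 eosinophil markers (Prg2 at background) and 33.6 to 51.1 against 41.7 to 60 for 4 dendritic cell markers (Xcr1 at background). Between the 3' and 5' control probe sets of Actb, a measure of RNA integrity and labelling, the difference was 2.16 to 2.64 in wild type and 2.30 to 3.11 in labelled knockout, higher in labelled knockout at each time, and in both genotypes it was largest without LPS. The same difference for Gapdh was 2.98 to 3.16 in wild type and 2.90 to 3.31 in labelled knockout, higher in labelled knockout at 0 h and lower at 1, 2 and 4 h. In such bulk samples fewer cells of a type and less RNA per cell cannot be told apart.

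The third comparison tested whether LPS altered the gap between genotypes, as the mean gap after LPS minus the gap at 0 h. By limma 0 of the 8 genes passed, as did 0 of all tested genes (0%). By the probe sets that stand for the genes, 0 of the 8 had an unadjusted p under 0.05 against 434 of all genes. Since no gene passed at all, the lack of calls among the 8 does not show that their gaps stayed the same. The Traf1 difference changed by 0.21 (SE 0.22, 95% interval from -0.36 to 0.78). In wild-type cells Traf1 rose by 3.62, 4.66 and 5.42 after 1, 2 and 4 h, and in labelled-knockout cells by 3.82, 5.05 and 5.45, so the gap was -1.19 at 0 h and between -1.16 and -0.80 after LPS. By the second Traf1 probe set the rises were 1.50, 2.03 and 1.35 in wild type against 0.49, 0.54 and 0.41. There the change of the difference was -1.15 (SE 0.28, 95% interval from -1.86 to -0.44, unadjusted p = 0.00798 by limma). It did not pass after adjustment over all tested probe sets (adjusted p = 1), and the wild-type 0 h reading of that probe set lay below background. Tnfaip3 rose by 4.81, 4.46 and 4.04 in wild type and by 4.70, 4.44 and 4.02 in labelled knockout. By the probe sets that stand for the genes, the most distant estimates belonged to Tnfaip2 (0.45, SE 0.20, interval from -0.05 to 0.94) and Tank (-0.40, SE 0.19, interval from -0.89 to 0.10).

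Other genes of the pathway were taken from 5 lists of 32 genes, of which 27 were tested. These lists too were chosen with earlier results of these data known. At 1 h 2 rose and 1 fell, while 3.85% of all genes rose and 6.62% fell. At 2 h 14 rose and 5 fell, against 12% and 29.8% of all genes. At 4 h 13 rose and 3 fell, against 14.4% and 29.4%. The median difference of the 27 genes was 0.11, 0.50 and 0.36, below that of the 8 genes at each time. Among 8 tested genes of K63 ubiquitin chains, TAK1 and IKK, 6 rose and 1 fell at 2 h. Peli1, an E3 ligase acting on IRAK proteins, read 7.66 and 7.80 without LPS and 10.71 and 11.01 at 2 h (difference 3.13, SE 0.13, adjusted p = 3.79e-05), while Ikbkg, the gene of the IKK subunit NEMO, fell by 0.81 (SE 0.16, adjusted p = 0.00869). Among 7 tested TRAF-associated ligases and kinases 5 rose at 2 h, with Birc3, which encodes the ligase cIAP2, going from 8.22 in both genotypes to 10.15 and 9.93 (difference 1.82, SE 0.11, adjusted p = 0.000118).

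Of 6 tested genes listed with A20 (Tnip2, Rnf11, Otud7b, Spata2, Tax1bp1 and Itch), the first 3 rose at 2 h and none fell. The largest increase was that of Tnip2, the gene of ABIN-2 (1.08, SE 0.15, adjusted p = 0.00206). Of the 4 genes of linear ubiquitin chains, 3 fell at 2 h and none rose, when 29.8% of all genes fell and 12% rose. At 4 h 1 of the 4 rose and 1 was still lower than at 0 h. Rnf31, the gene of the ligase HOIP, rose by 2.47 (SE 0.36, adjusted p = 0.00193) at 4 h, and Rbck1, the gene of its partner HOIL-1, differed from 0 h by -0.92 (adjusted p = 0.00206) at 2 h and by 0.08 (adjusted p = 0.637) at 4 h. Both were named after their values were seen. Otulin, the deubiquitinase of these chains, read 6.12 and 5.24 without LPS and 4.78 and 4.27 at 2 h (difference -1.15, SE 0.20, adjusted p = 0.00557). Of the other TRAF genes, Traf7 fell by 0.90 (SE 0.20, adjusted p = 0.0124), Traf6 differed by 0.13 (adjusted p = 0.514) and Traf4 did not pass the filter on dim genes. Between genotypes, 1 of the 27 was higher and 4 were lower, against 4.75% and 8.72% of all genes.

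The shares of all genes depend on the scaling of the arrays. Higher genes made up 36.8%, 28.6% and 32.9% of those called at 1, 2 and 4 h, and 50.1%, 39.6% and 41.9% after cyclic loess. Centred on a list of housekeeping genes they made up 54.9%, 46.9% and 56.1%, and between genotypes 22.3% against 35.3% as deposited and 46.7% after cyclic loess. The median over all genes for 4 h was -0.12 as deposited and 0.13 with that centring. Under both scalings the increases of Tnfaip3, Tnip1, Traf1, Traf5, Tank and Tnfaip2 at 1, 2 and 4 h and the lower Traf1 in labelled knockout kept their direction and their call.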

How the data were processed

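RNA from 8 samples, 1 for each genotype and time, was hybridised to Affymetrix arrays. Per the labels' protocols, total RNA was isolated with Trizol and biotinylated cRNA was made by the NuGEN Ovation kit. The deposited values are log2 values for 45101 probe sets, made with RMA (background correction, quantile normalization and summary per probe set), per the submitters' processing notes, which give no version. Quantile normalization hides any change in total mRNA. Array medians lay between 3.14 and 3.21 and pairwise correlations between 0.933 and 0.988.

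The platform annotation gave the gene names (34958 with 1 symbol, 932 with several, 9211 unnamed here), checked against the RefSeq gene table of GRCm38.p6. The probe set of highest mean stood for its gene, which was kept when its second-highest array reached 3.16, the median of all values. Background was the highest of 27 control probe sets for bacterial transcripts, 2.96 to 3.26 by array. Limma 3.58.1 in R 4.3.3 was fitted to all 12540 kept genes with Benjamini-Hochberg adjustment at 0.05. The additive fit had genotype and time as terms and 3 residual degrees of freedom, and the changed genotype difference had 2. The fits were tested on simulated data, where a minimum of recovered changes was required of every comparison except the changed genotype difference. Errors are moderated standard errors (SE). Nothing states that the arrays come from separate animals, so p-values measure the spread between these arrays only, and their number limits the precision. With 1 array per genotype and time, that spread is not one between repeats. In the additive fit any genotype difference in the LPS response counts as error.

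The members and gene lists were chosen with earlier results of these data known. All members were named on every probe set that carries their symbol alone, from each list the gene of largest increase and of largest decrease past the threshold at 2 h, and for each member the gene of highest correlation. The alternatives were cyclic loess, centring on housekeeping genes, a stricter filter (4.83, the 75th percentile) or none, averaging a gene's probe sets, dropping the sets marked as able to match several transcripts, trend and robust settings, a 2-fold minimum, no block and leaving out each array. Fits by each other probe set were added after seeing the data.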

Additional observations from a re-analysis of the deposited data

How the results depend on the processing

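Of 729 values of single genes recomputed under up to 17 alternatives, 671 kept their direction and their side of the threshold, 32 lost and 13 gained a call, and 13 changed sign. At 1, 2 and 4 h against 0 h the number of genes called stayed within 1.5 times that of the deposited values, from 5 to 6, 5 to 6 and 7 to 8. Traf2 was not tested with the stricter filter, nor Tnip1 without the probe sets able to match several transcripts. Each of these settings left 7 genes, so a lower count there can be a gene removed and not a call lost. The counts of the steps moved more, for reasons not tested. From 1 to 2 h, where 3 were called, 5 were called with the filter at the 75th percentile, with the mean of a gene's probe sets and with trend and robust settings. From 2 to 4 h, where 3 were called, 1 was called with the mean of probe sets, 0 with a 2-fold minimum and 0 with no block, and from 0 to 2 when an array was left out. Leaving out either wild-type array of that step gave 0 and either labelled-knockout array 1. Between genotypes, where 1 was called, 2 were called after centring on housekeeping genes, 3 with trend and robust settings and 0 with no block, and from 1 to 2 when an array was left out, with 2 without either 1 h array. The changed genotype difference could not be fitted without a 0 h array and gave 0 calls otherwise.

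Values that changed sign follow, among them the called Cyld increase at 4 h, and the cause was not tested. When an array was left out, Traf2 at 1 h ran from -0.15, without the labelled-knockout 1 h array, to 0.40, and Cyld at 2 h from -0.01, when that of wild type at 2 h was dropped, to 0.35. Cyld was -0.16 at 1 h and -0.11 at 2 h with the mean of its probe sets. Between genotypes Cyld was -0.03 after centring and from -0.02, without either 4 h array, to 0.12 when an array was left out, Traf5 was from -0.01, without either 1 h array, to 0.13, and Tank was 0.04 with the mean of its probe sets and 0.22 without its multiple-match probe set. In the changed genotype difference Traf1 was -0.47 with the mean of its probe sets and Tank 0.18 without its multiple-match probe set. By other probe sets, added after seeing the data, Cyld was -0.66, -0.53 and -0.74 at 1, 2 and 4 h and -0.21 from 2 to 4 h by 1429201_at, and -0.01 at 2 h and -0.18 between genotypes by 1429617_at. Traf1 was -0.41 from 2 to 4 h and -1.15 in the changed difference by 1445452_at, and Tank 0.22 between genotypes and 0.18 in the changed difference by 1441513_at.

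Arrays of the same time were compared as pairs through the time block, without which the Traf1 genotype call was lost (adjusted p = 0.977). Pairing by replicate number was not possible, since the labels give none and each genotype and time has 1 array.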
